A study of Mus musculus with 4 samples.

Results

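Calcineurin, its Rcan regulators and its NFAT targets were followed in mouse left ventricle through 8 genes: Rcan1, Rcan2, Ppp3ca, Ppp3cb, Ppp3r1, Nfatc1, Nfatc3 and Nfatc4. Every probe set whose platform annotation gave 1 of these symbols was taken, which made 19 of the 22690 probe sets on the array. A further probe set that lists another gene beside Ppp3r1 was not used. The study asked how loss of the cytokine IL-18 alters gene expression in hypertrophy caused by pressure overload. It had 4 groups, each 1 array of pooled left ventricular RNA: IL-18 null banded, IL-18 null sham, wild-type banded and wild-type sham. Banding is transaortic constriction, a surgical narrowing of the aorta, and sham mice had the operation without it. The IL-18 null banded pool held 6 mice and was banded for 1 week, and the IL-18 null sham pool held 5 mice. The IL-18 null strain was on a C57BL/6 background in the label of the banded pool. For wild type the labels give no strain, pool size or banding time, and the series design gives pools of 5 to 6 per group. Age and sex were not given in the labels. With 1 array per group there was no replicate error, so a difference between arrays is given as its size and has no test.

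Calcineurin is a protein phosphatase switched on by calcium and calmodulin. It has a catalytic A subunit, encoded in the heart mainly by Ppp3ca (alpha isoform) and Ppp3cb (beta isoform), and a calcium-binding regulatory B subunit encoded by Ppp3r1. It removes phosphates from NFAT transcription factors, which then enter the nucleus, and in mouse heart this route drives hypertrophic growth. Rcan1 and Rcan2 encode proteins that bind calcineurin and modulate its activity. A short form of Rcan1 is transcribed from an internal start under NFAT control, and for that reason Rcan1 message is used as a readout of calcineurin activity.

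The starts annotated for Rcan1 are shown because that gene had the largest banding difference of the 8 on the IL-18 null arrays. The windows run from 250 bases before to 50 bases after each RefSeq start (GRCm38.p6) and are on the minus strand, read 5′ to 3′. Capitals mark GGAAA, the core recognised by NFAT proteins, and TTTCC, the same core on the other strand. These letters cannot overlap each other. The upstream start lies in chr16:92466120-92466419 and the internal start in chr16:92400029-92400328.
Rcan1 upstream start: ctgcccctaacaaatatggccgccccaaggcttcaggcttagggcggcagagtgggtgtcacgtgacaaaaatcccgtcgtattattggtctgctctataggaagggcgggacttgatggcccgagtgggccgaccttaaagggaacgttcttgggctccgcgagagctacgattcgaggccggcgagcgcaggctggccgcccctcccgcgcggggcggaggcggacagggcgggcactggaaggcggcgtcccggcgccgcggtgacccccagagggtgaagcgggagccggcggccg
Rcan1 internal start: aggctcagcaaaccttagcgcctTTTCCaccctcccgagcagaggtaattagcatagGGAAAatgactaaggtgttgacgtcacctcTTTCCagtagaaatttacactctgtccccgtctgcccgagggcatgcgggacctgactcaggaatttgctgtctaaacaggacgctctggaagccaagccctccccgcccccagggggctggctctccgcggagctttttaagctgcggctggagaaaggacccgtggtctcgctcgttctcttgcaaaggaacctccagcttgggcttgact
The window of the internal start held 3 matches, 1 GGAAA and 2 TTTCC, and that of the upstream start held 0. Of 32851 promoter windows of 300 bases, 61.3% held at least 1 match and 9.42% held at least 3. A match is a description of letters and not of a bound site. Member windows on 1 chromosome were left out of this search, while the 32851 windows kept that chromosome. The search then covered 10 windows for 6 of the 8 genes. None was used for Ppp3ca or Nfatc1, which does not show that the promoter table lacks them. The window of Ppp3cb held 4 matches, a number reached by 2.65% of windows, that of Nfatc4 held 3 and that of Ppp3r1 held 0. The 3 windows of Rcan2 held 2, 0 and 0, and both windows of Nfatc3 together held 1. The deposited values do not say which Rcan1 start was used.

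The arrays differed before any gene was compared. Values are the deposited intensities, and a probe set counts as measured where it reached a floor of 64 intensity units (log2 6) on at least 1 array compared. On each array 29.2% to 32.3% of non-control probe sets reached the floor. Across 8062 measured probe sets the arrays correlated at Pearson's r of 0.679 (wild-type banded with wild-type sham) to 0.935 (the IL-18 null arrays), a description across probe sets that share arrays. The 3′ and middle control probe sets of Gapdh differed by 1.66 (log2) in IL-18 null banded and 2.73 in IL-18 null sham, against -0.16 in wild-type banded and 4.61 in wild-type sham. The 3′ minus 5′ difference of Gapdh was 4.36 in IL-18 null banded and 5.13 in IL-18 null sham, against 0.21 in wild-type banded and 4.96 in wild-type sham. For Actb the 3′ minus middle difference was 4.57, 4.69 and 2.01 in IL-18 null banded, IL-18 null sham and wild-type banded; in wild-type sham the middle probe set read 16.9, below the floor, and gives no place in this order. Wild-type banded thus had the least loss of signal away from the 3′ end by these values. Wild-type sham had the largest 3′ minus middle difference of Gapdh. Its 5′ Gapdh probe set read 65.8, close to the floor of 64, so 4.96 and 5.13 do not rank the sham arrays. The Actb 3′ minus 5′ difference of wild-type sham was 5.81 without the floor, but its 5′ probe set read 8.9, below the floor. On the other arrays that Actb difference ran from 1.92 (wild-type banded) to 3.04 (IL-18 null sham). The part of this loss of signal in the results was not tested. Each result that rests on the wild-type sham array is given beside those that do not use it. The Il18 probe set read 8.4 and 8.2 intensity units in the IL-18 null arrays and 7.4 and 9.1 in the wild-type arrays, all below the floor, so it did not check the genotype labels. The ventricular cardiomyocyte markers (8 of 8) were at or above the floor on every array, and the skeletal muscle markers (4 of 4) below it on every array.

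**Figure D1:**
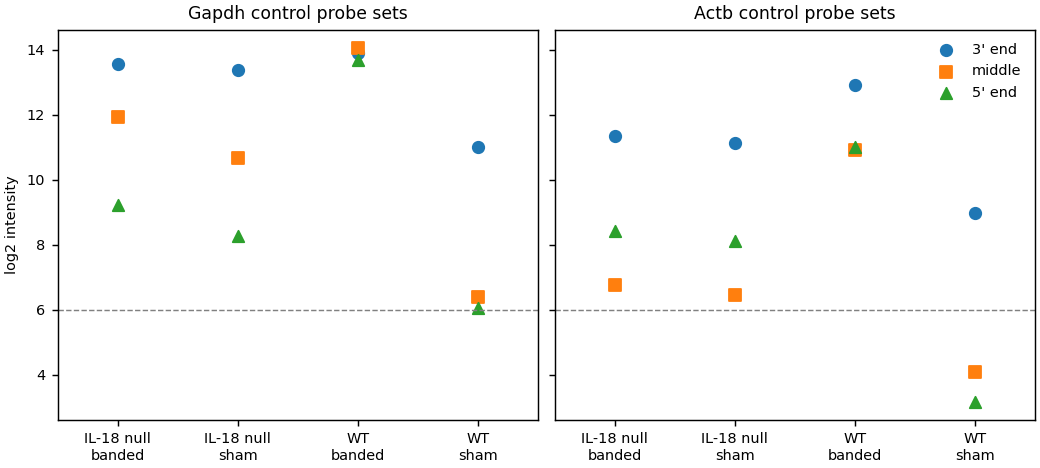
Log2 intensity of the 3′, middle and 5′ control probe sets of Gapdh (left) and Actb (right) on each of the 4 arrays, 1 point per probe set; the dashed line is the floor at log2 6. The Gapdh points lie almost together in wild-type banded and spread widely in wild-type sham, where the 3′ minus middle difference was 4.61.

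Of the 19 probe sets, 11 were measured and 7 reached the floor on all 4 arrays. Both probe sets of Rcan1, both of Rcan2, all 3 of Ppp3ca and both of Ppp3cb were measured, as were 1 of 2 for Ppp3r1 and 1 of 2 for Nfatc3. The 2 probe sets of Nfatc1 and the 4 of Nfatc4 were not measured. The 8 that were not measured had intensities of 3.3 to 22.7, which have no order below the floor. In bulk tissue, fewer cells of a type and less RNA per cell cannot be told apart.

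**Figure D2:**
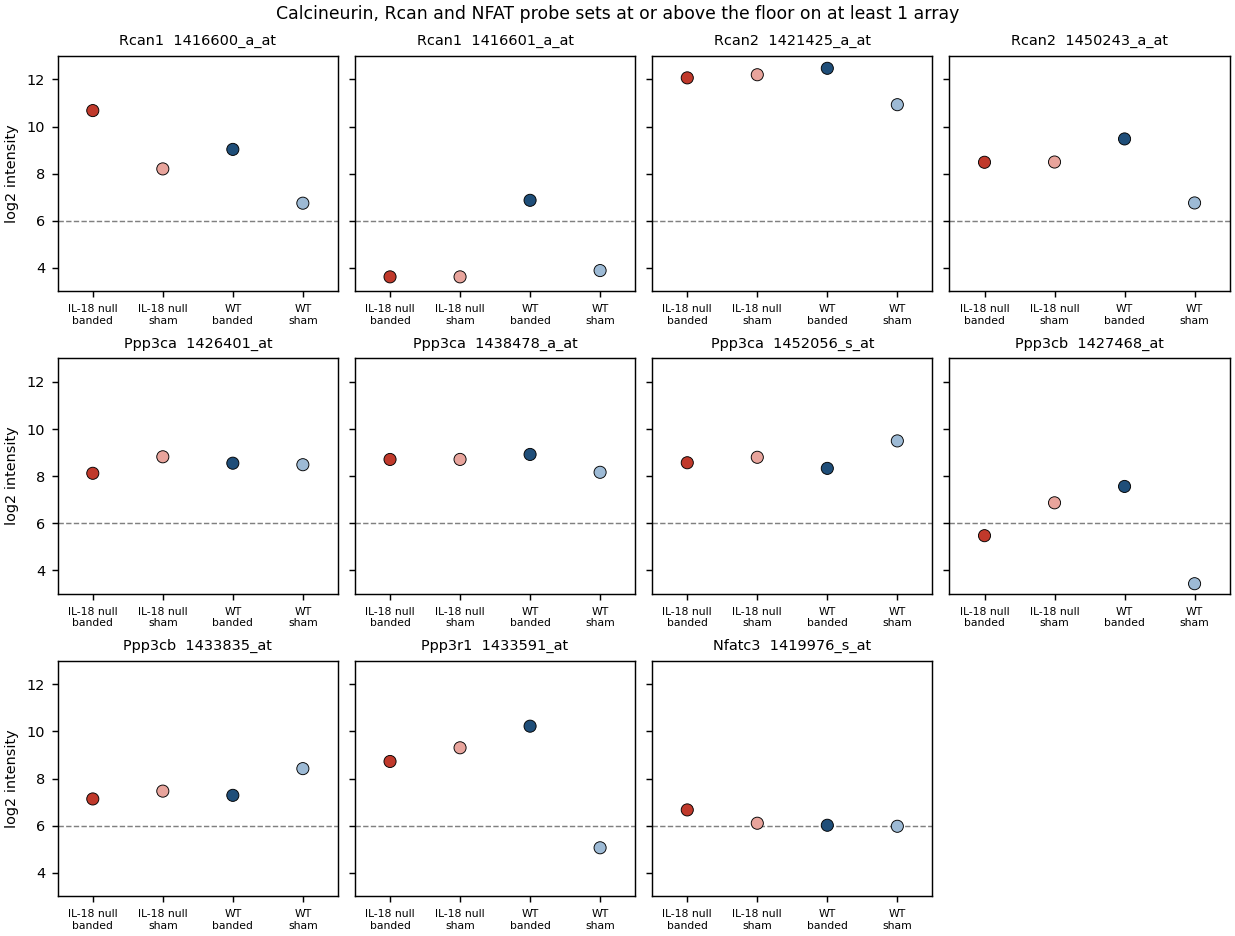
Log2 intensity of each of the 11 measured probe sets on the IL-18 null banded, IL-18 null sham, wild-type banded and wild-type sham arrays, 1 point per array with no replicate; the dashed line is the floor at log2 6. Rcan1 1416600_a_at is high on both banded arrays, while Rcan2 and Ppp3r1 1433591_at are lowest on the wild-type sham array.

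Rcan1, the calcineurin regulator, was higher on the banded array in both genotypes. Its brighter probe set, 1416600_a_at, read 1640.5 in IL-18 null banded against 294.9 in IL-18 null sham, and 523.6 in wild-type banded against 107.5 in wild-type sham. Both banded arrays lay above both sham arrays, with IL-18 null banded the highest and wild-type sham the lowest. The difference with banding was 2.48 (log2) in IL-18 null, a 5.56-fold one, and 2.28 in wild type, a 4.87-fold one. These were close in size, but their places among all probe sets were not: Rcan1 ranked 40 from the highest of 7385 probe sets in IL-18 null and 791 of 7880 in wild type, where many probe sets differed widely. The response in IL-18 null minus that in wild type was 0.19, and it was 0.56 after quantile normalization and -0.09 after cyclic loess. With no replicate, a difference of this size has no error to be read against.

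Within each surgery the IL-18 null array also read higher for Rcan1 than its wild-type counterpart, by 1.65 among banded and by 1.46 among sham arrays. It ranked 100 of 7697 probe sets in the banded comparison and 936 of 7453 in the sham one. By place within its own array, which does not depend on the scale of the array, 1416600_a_at exceeded 94.2% of non-control probe sets in IL-18 null banded, 82.1% in IL-18 null sham, 86.2% in wild-type banded and 75.1% in wild-type sham. The order of the arrays was therefore the same by rank as by intensity.

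The other Rcan1 probe set, 1416601_a_at, did not follow this pattern. It read 12.3 in IL-18 null banded and 12.3 in IL-18 null sham, against 117 in wild-type banded and 14.8 in wild-type sham. Only the wild-type banded array reached the floor, and that array also had the smallest 3′ minus middle differences of Gapdh and Actb; their part in this reading was not tested. The 2 Rcan1 probe sets thus gave opposite signs between the banded arrays, 1.65 for 1416600_a_at and -0.87, a bound, for 1416601_a_at. All probe sets of Rcan1 and Rcan2 carry the ID ending _a_at, used for probe sets that match several transcripts of 1 gene. Which transcript forms each detects was not given in the sources used here.

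Rcan2, which encodes the related calcineurin regulator, differed little with banding in IL-18 null and was higher with banding in wild type. Its brighter probe set, 1421425_a_at, read 4297.7 in IL-18 null banded against 4710.9 in IL-18 null sham, and 5694.4 in wild-type banded against 1951.4 in wild-type sham. The banding differences were -0.13 in IL-18 null and 1.54 in wild type. The other probe set, 1450243_a_at, read 358.4 and 361.1 in IL-18 null banded and sham, and 712.4 and 108.3 in wild-type banded and sham. Its banding differences were -0.01 in IL-18 null and 2.72 in wild type. Both probe sets were lowest in wild-type sham and highest in wild-type banded, and the IL-18 null arrays lay between. In the comparison of banded arrays, which leaves out wild-type sham, the IL-18 null array read lower for both Rcan2 probe sets, with log2 differences of -0.41 and -0.99. Between the sham arrays it was higher in IL-18 null by 1.27 and 1.74. Rcan1 and Rcan2 therefore stood on opposite sides of 0 between the banded arrays and on the same side between the sham arrays, if Rcan1 is taken by 1416600_a_at.

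The regulatory subunit gene Ppp3r1 had the widest spread of the 8 genes. Its measured probe set, 1433591_at, read 423.5 in IL-18 null banded against 633.5 in IL-18 null sham, and 1196.8 in wild-type banded against 33.4 in wild-type sham. Only wild-type sham lay below the floor. With banding it was lower in IL-18 null (log2 difference -0.58) and at least 18.7-fold higher in wild type. Between the sham arrays IL-18 null exceeded wild type at least 9.9-fold, and between the banded arrays it was lower in IL-18 null by 2.83-fold (-1.50). The middle Gapdh control probe set read 3885.1, 1619.6, 17062.5 and 83.6 in IL-18 null banded, IL-18 null sham, wild-type banded and wild-type sham, and so was also lowest in wild-type sham and highest in wild-type banded; its part in the Ppp3r1 values was not tested. The comparison of IL-18 null arrays, whose controls lay closer together, does not use either of these arrays.

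The catalytic subunit gene Ppp3ca was measured by 3 probe sets on all 4 arrays. In IL-18 null the banded minus sham differences were -0.70 for 1426401_at (278.4 against 452.4), -0.00 for 1438478_a_at (418.4 against 418.9) and -0.23 for 1452056_s_at (379.7 against 445.9). None of the 3 was past 2-fold there. In wild type they were 0.06 (374.7 against 358.4), 0.76 (484.9 against 286.7) and -1.17 (321.8 against 722.1). The probe sets of Ppp3ca disagreed in sign in wild type, with 1452056_s_at past 2-fold in the lower direction, while in IL-18 null all were at or below 0.

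Ppp3cb, the gene of the beta catalytic subunit, gave the clearest disagreement between probe sets. Probe set 1427468_at read 44.4 in IL-18 null banded against 116.8 in IL-18 null sham, and 189.1 in wild-type banded against 10.8 in wild-type sham. Probe set 1433835_at read 140.6 against 177 in the IL-18 null pair and 156.3 against 343.1 in the wild-type pair. With wild-type banding the first was at least 2.95-fold higher and the second 2.20-fold lower. In IL-18 null both were lower in banded, with log2 differences of -0.87, a bound, and -0.33. For 1433835_at the highest array was wild-type sham, and for 1427468_at that array was below the floor, so the calls of Ppp3cb with wild-type banding had no single direction.

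Of the NFAT genes, whose products are the phosphatase's targets, Nfatc3 alone was measured and lay near the floor. Probe set 1419976_s_at read 101.8 in IL-18 null banded against 68.8 in IL-18 null sham, and 64.8 in wild-type banded against 62.9 in wild-type sham. The banding differences were 0.57 in IL-18 null and 0.02, a bound, in wild type, and the IL-18 null banded array exceeded the wild-type banded one by 0.65. None of these was past 2-fold. The other Nfatc3 probe set, 1452497_a_at, stayed between 6 and 7.1. Nfatc1, known for its role in endocardium and heart valves, read 17.1 to 22.7 on its brighter probe set, and Nfatc4, whose product binds GATA4 in cardiac muscle, read 9.2 or less on all of its probe sets. For Nfatc1 and Nfatc4 the arrays therefore show only readings below the floor of 64 units in these pools.

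**Figure D3:**
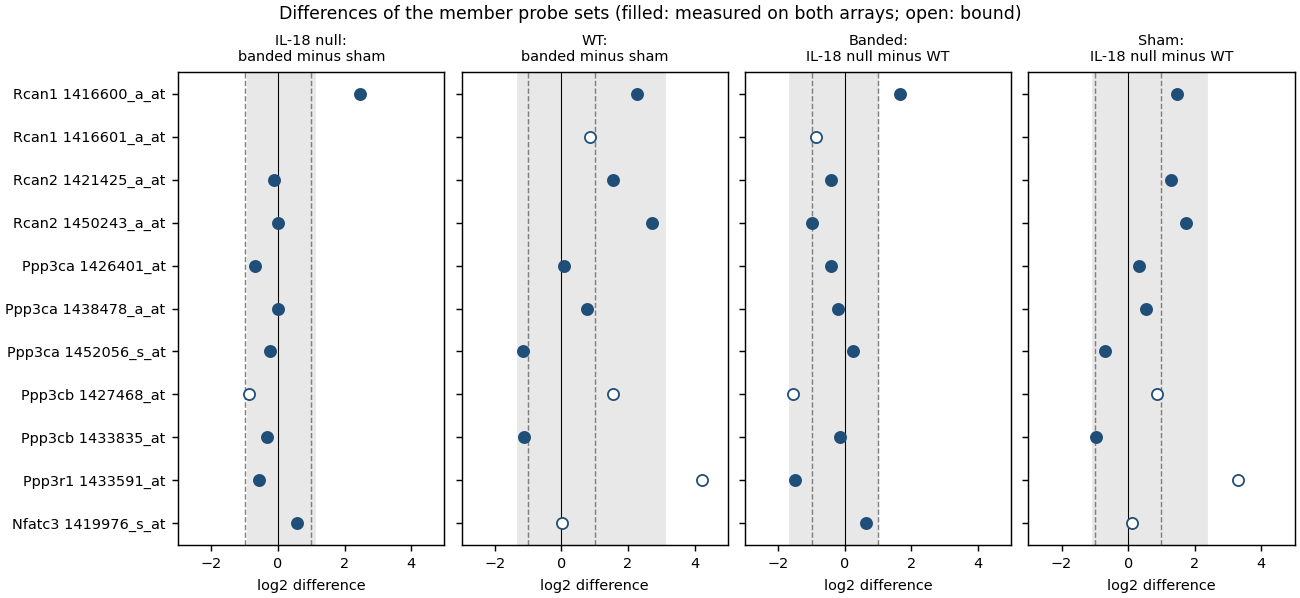
Log2 differences of the 11 measured probe sets in 4 comparisons, each named above its panel; filled points were measured on both arrays, open points are bounds, and a missing point had both arrays below the floor. The grey band holds the central 90% of all measured probe sets, dashed lines mark 2-fold, and in the IL-18 null banding panel Rcan1 1416600_a_at at 2.48 is the only point beyond them.

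Counted at 2-fold, 1 of 10 measured member probe sets was past it with IL-18 null banding, the Rcan1 probe set 1416600_a_at, beside 10.7% of all 7385 probe sets past it in either direction, 6.54% higher and 4.16% lower. With wild-type banding 7 of 11 were past 2-fold, 5 higher and 2 lower, beside 36.5% of 7880 probe sets, 25.1% higher and 11.4% lower. The 5 higher were 1416600_a_at of Rcan1, both probe sets of Rcan2, 1427468_at of Ppp3cb and 1433591_at of Ppp3r1, and the 2 lower were 1452056_s_at of Ppp3ca and 1433835_at of Ppp3cb. The median of the measured members was -0.18 in IL-18 null and 0.87 in wild type, beside medians of 0.07 and -0.02 over all probe sets. The wild-type median is the value of Rcan1 1416601_a_at, a bound, so it depends on the floor. In wild type 4 of the 11 member differences were bounds, and in IL-18 null 1 of 10. Between banded arrays 1 was higher and 2 lower of 11 (15.8% of all 7697 past 2-fold, 5.01% higher and 10.8% lower), and between sham arrays 4 were higher and 0 lower of 10 (24.6% of all 7453, 18.6% higher and 6% lower). A member enters these counts only if it reached the floor on an array compared, so they do not describe all 19. The median over all probe sets with wild-type banding moved to -0.34 after quantile normalization and to 0.15 after cyclic loess. Beside these medians, the Rcan1 1416600_a_at difference in wild type was 1.79 after quantile normalization and 2.47 after cyclic loess, and that of Rcan2 1421425_a_at was 1.28 and 1.68 under the same settings. The 2 lower members in wild type, 1452056_s_at and 1433835_at, were at -0.98 and -0.93 after cyclic loess, inside 2-fold.

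The difference of the banding responses, IL-18 null minus wild type, was past 2-fold for 0 members in the higher and 4 in the lower direction of 11, beside 43.7% of 8062 probe sets in either direction, 18.8% higher and 24.9% lower. These 4 were both Rcan2 probe sets (-1.68 and -2.73), Ppp3cb 1427468_at (-2.43, a bound) and Ppp3r1 1433591_at (-4.81, a bound). For Rcan2 and Ppp3r1 the lowest array was wild-type sham, and for Ppp3cb 1427468_at it was 1 of 2 arrays below the floor, so each rests on that array.

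A model with surgery and genotype as additive terms gave the one available test, since its departure from additivity leaves 1 residual degree of freedom. In limma's moderated test over 8062 probe sets, 0 had an adjusted p (Benjamini-Hochberg) under 0.05 for banding and 0 for genotype (0% each), and 131 and 15 had an unadjusted p under 0.05. For Rcan1 1416600_a_at the banding term was 2.38 ± 0.63 (SE, log2), positive in both genotypes, with an unadjusted limma p of 0.0116 and an adjusted p of 1.00. Rcan1 was the 1 of 11 fitted members under 0.05 before adjustment for banding, and 0 of 11 were for genotype. The Rcan1 genotype term was 1.55 ± 0.63 with an unadjusted limma p of 0.054. The Ppp3r1 1433591_at banding term had a larger error, 2.29 ± 1.40 (SE, log2). In this fit the error comes from unequal banding responses of the 2 genotypes, moderated over all probe sets. For Ppp3r1 1433591_at the responses differed by -5.74 without the floor. The errors and p-values of this fit therefore do not measure spread between mice or repeat arrays. No member passed the adjusted test.

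The genes whose pattern over the 4 arrays was nearest to that of Rcan1 1416600_a_at were sought among the 3991 genes that reached the floor on all arrays, by the Euclidean distance between log2 values centred on their mean. The nearest was Col1a1, a chain of type I collagen, at a distance of 0.41, where the median gene stood at 2.89. Col1a1 read 1632.9 in IL-18 null banded against 225.9 in IL-18 null sham, and 591 in wild-type banded against 109.7 in wild-type sham. Myh7, the slow myosin heavy chain, followed at 0.69, then Mfap5, a microfibril protein, at 0.94, Irf1, an interferon-regulatory transcription factor, at 0.98, and Fxyd5, a regulator of the sodium pump, at 0.99. All 5 were higher on the banded array in both genotypes, which the choice by likeness fixes. Over 4 arrays such likeness is a description.

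**Figure D4:**
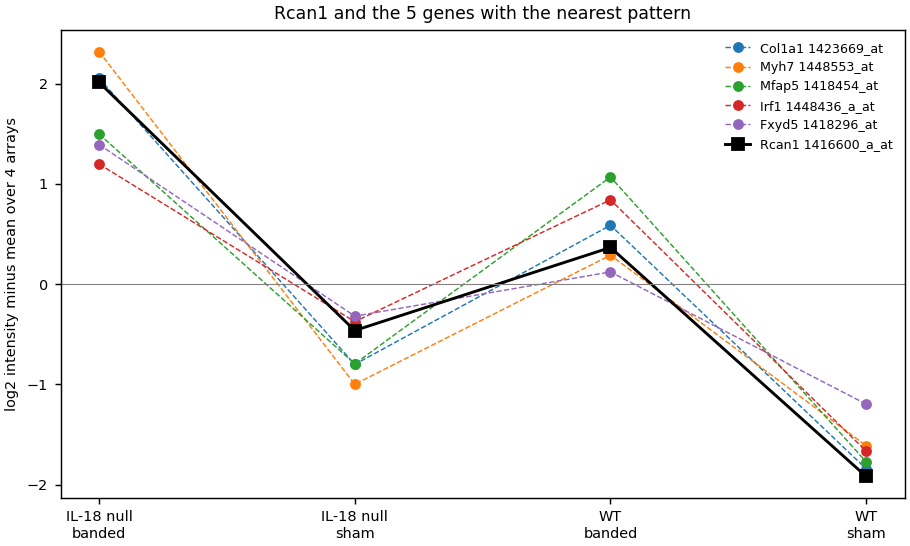
Log2 intensity minus the mean over the 4 arrays for Rcan1 1416600_a_at (black squares) and the 5 genes of smallest distance to it, with lines joining the arrays of 1 gene to guide the eye. Col1a1, at a distance of 0.41, lies closest to Rcan1, and every gene shown is highest in IL-18 null banded and lowest in wild-type sham.

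Markers of other cell types moved with Rcan1 in part. Beside the counts here, 6.54% of all probe sets were past 2-fold higher with IL-18 null banding and 25.1% with wild-type banding. The 6 fibroblast markers summed to 13673 intensity units in IL-18 null banded against 8546 in IL-18 null sham, and to 14816 in wild-type banded against 4109 in wild-type sham. In each genotype 3 of 5 measured were past 2-fold higher with banding. Dcn gave the largest part of the wild-type rise, 10343.6 in banded against 1330.4 in sham, and differed by 0.28 in IL-18 null. Of the measured markers only Pdgfra was lower with banding, with log2 differences of -0.84 in IL-18 null and -0.61 in wild type. The 6 macrophage markers summed to 5829 against 1554 in the IL-18 null pair and to 2431 against 2128 in the wild-type pair. Of these 3 of 5 measured were past 2-fold higher in IL-18 null and 2 of 5 in wild type. The remaining measured markers in wild type were lower with banding: Csf1r by -0.67, Adgre1 by -0.30 and Cd14 by -0.03. C1qa read 366.9 in wild-type banded and was below the floor on every other array. Cd14 gave the largest part of the IL-18 null rise, 1885.6 against 72, and read 71.9 against 73.3 in the wild-type pair. The 8 endothelial markers summed to 3071 against 3941 in the IL-18 null pair and to 4548 against 2770 in the wild-type pair, with 0 of 6 higher in IL-18 null, 3 of 8 in wild type and 0 lower in either. The 3 atrial markers summed to 2097 against 1765 in the IL-18 null pair and to 3919 against 1552 in the wild-type pair, with 0 of 3 higher in IL-18 null and 1 of 3 in wild type. The 6 smooth muscle and pericyte markers summed to 9877 against 10377 in the IL-18 null pair and to 11610 against 12095 in the wild-type pair. Of these 2 of 4 measured were past 2-fold higher in IL-18 null and 1 of 4 in wild type, with 0 lower in either. T and B cell markers were all below the floor on both IL-18 null arrays, and 1 of 4, Cd3e, reached it in wild type. Cd3e read 35.7 in wild-type banded, below the floor, against 89.5 in wild-type sham. Its difference of -0.48 is a bound, so whether it passed 2-fold is not known. The ventricular cardiomyocyte markers had 0 of 8 past 2-fold in any of the 4 comparisons of arrays. The part of other cell types in the Rcan1 and Rcan2 differences was not tested.

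The other genes of the pathway were each described by their brightest probe set on average. Of 5 other family genes, 4 were on the array and 2 measured. Ppp3cc, the third catalytic subunit gene, differed by 0.47 with IL-18 null banding and at least 0.42 with wild-type banding, and Nfat5, a factor of the osmotic stress response that calcineurin does not act on directly, by 0.42 in IL-18 null and -1.22 in wild type. With Nfat5 the lower value in wild type came with its highest reading in wild-type sham, 805.5. Nfatc2 and Rcan3 were not measured.

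Anchors, inhibitors and binding proteins of calcineurin had 8 of 13 genes on the array. With IL-18 null banding 0 were higher and 1 lower of 6 measured (median 0.26). With wild-type banding 2 were higher and 0 lower of 5 (median 0.41). Over all probe sets 10.7% and 36.5% were past 2-fold in these comparisons, with medians of 0.07 and -0.02. Akap1, an anchor protein at the mitochondrial surface that binds calcineurin, read 186.4 in IL-18 null banded against 454.9 in IL-18 null sham, and 691.8 in wild-type banded against 125.5 in wild-type sham. It was the member lower in IL-18 null (-1.29) and among the higher in wild type (2.46). The Z-disc protein gene Csrp3 differed by 0.37 in IL-18 null and 0.36 in wild type, and Fkbp1a, which encodes the protein bound by the drug tacrolimus, by 0.26 in IL-18 null and 0.41 in wild type.

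Calmodulin, calcium entry and calmodulin kinase genes had 3 measured of 9 on the array, with 0 past 2-fold in IL-18 null (median 0.34) and 1 higher in wild type (median 0.84). Camk2g, a calmodulin kinase II isoform, was higher by 0.58 in IL-18 null and 1.13 in wild type. Cacna1c, the pore subunit of the L-type calcium channel, differed by -0.56 in IL-18 null and 0.84 in wild type, and Camk2d, the main cardiac calmodulin kinase II isoform, by 0.34 in IL-18 null and -0.75 in wild type. Kinases that return NFAT to its phosphorylated form had 8 measured of 11. With IL-18 null banding 0 were higher and 1 lower (median 0.09), and with wild-type banding 1 was higher and 2 lower (median -0.32). For both lists these counts stand beside 10.7% of all probe sets past 2-fold with IL-18 null banding and 36.5% with wild-type banding. Prkaca, a catalytic subunit of protein kinase A, was at -1.35 in IL-18 null and was higher in wild type by at least 3.75. Csnk1d, a casein kinase, differed by -0.15 in IL-18 null and -1.21 in wild type, and Mapk9, a stress-activated kinase, by 0.48 in IL-18 null and -1.13 in wild type.

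Partner factors of NFAT and genes of the hypertrophic programme had all 8 genes measured. Over all probe sets 6.54% were past 2-fold higher with IL-18 null banding and 25.1% with wild-type banding. In this list banding gave 4 higher and 0 lower in IL-18 null (median 0.71), and 6 higher and 0 lower in wild type (median 1.65). The 4 in IL-18 null were Nppa, Nppb, Myh7 and Acta1, which are messages of the programme and not partner factors. Myh7 differed by 3.32 in IL-18 null and 1.90 in wild type. Nppa, the atrial natriuretic peptide gene, differed by 2.50 in IL-18 null and 1.41 in wild type, and Acta1, skeletal alpha-actin, by 1.82 in IL-18 null and 6.24 in wild type. The 4 partner factors were within 2-fold in IL-18 null, with Gata4 at -0.73, Mef2a at -0.25, Mef2c at 0.27 and Mef2d at -0.49. In wild type Gata4 was higher by at least 2.65 and Mef2d by at least 1.94, both below the floor in the sham array, while Mef2a was at -0.71 and Mef2c at 0.72.

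**Figure D5:**
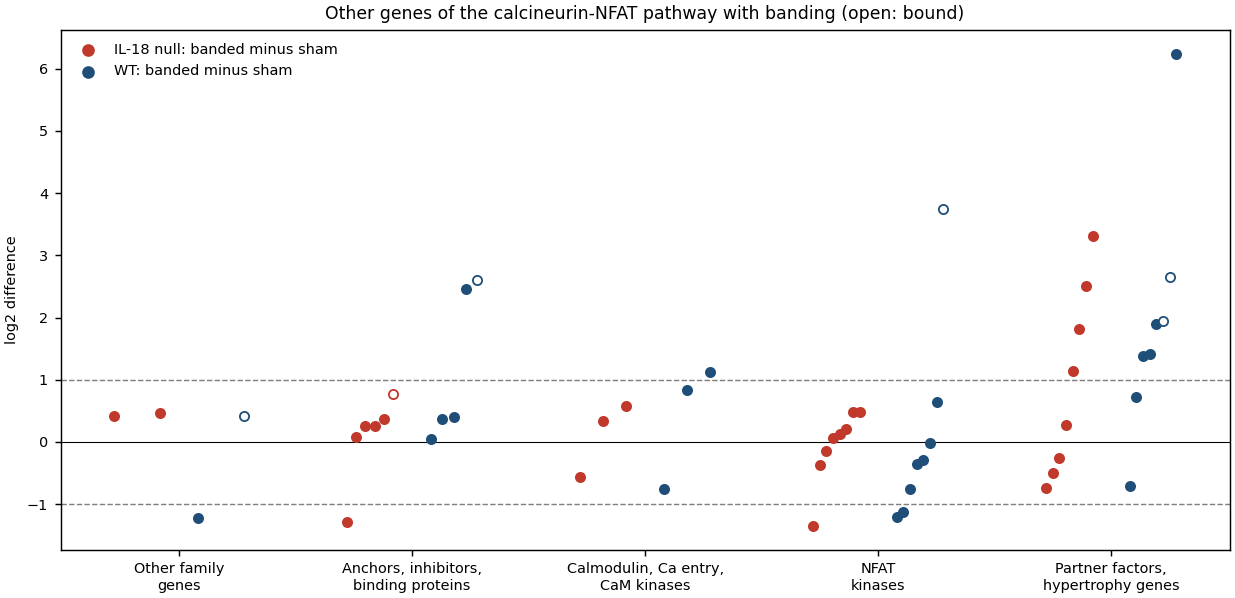
Log2 differences, banded minus sham, of the measured pathway genes in 5 lists for IL-18 null (red) and wild type (blue), 1 point per gene in order of size; open points are bounds and dashed lines mark 2-fold. In the list of partner factors and hypertrophy genes 4 of 8 points in IL-18 null and 6 of 8 in wild type lie above 2-fold. Over all probe sets 6.54% and 25.1% were past 2-fold higher in IL-18 null and wild type. The wild-type points spread more widely in most lists.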

How the data were processed

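Total RNA from left ventricle was hybridised to 4 arrays with biotin label, 1 per group, and groups were taken from the sample titles. The deposited values are intensity values per probe set on a linear scale, from 1.5 to 43811.1, which the authors computed with GCRMA per the submitters' processing notes. GCRMA subtracts a modelled background, which compresses low values; its version, its settings and whether a scaling followed are not given in the sources used here. The number of arrays limits the precision.

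Gene symbols came from the platform annotation: of 22690 probe sets, 64 were controls, 20380 had 1 gene, 691 several and 1555 none. All 19 member probe sets matched the RefSeq table (GRCm38.p6) by gene identifier. Values were taken to log2 and those below log2 6 were set to that floor before differences were taken; a difference with 1 array below it is a bound. All non-control probe sets with an array at or above the floor entered, and 2-fold was the size counted. The additive fit used limma 3.58.1 in R 4.3.3 (lmFit, eBayes with trend) on unfloored log2 values. It was also run on simulated data with additive changes and a common noise level. That setting is simpler than these arrays, so it does not check the fit for them. Named were all members, up to 3 genes per pathway list with the largest banding difference (both arrays reaching the floor), and the 5 genes nearest to Rcan1. The 4 partner factors and Nppb were named after their values were seen. The members and lists were chosen with earlier results of these data known. Alternatives were other floors, quantile and cyclic loess normalization, a 1.5-fold threshold, leaving out probe sets shared between transcripts, and other filters and thresholds of the fit. Centring each array on the median of probe sets measured on all arrays was added after the data were seen.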

Additional observations from a re-analysis of the deposited data

Results flagged for a closer look

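In 4 member probe sets the banding difference had opposite signs in the 2 genotypes and the responses were at least 2-fold apart. Over all 8062 probe sets, 43.7% had responses at least 2-fold apart, whatever their signs, and the share with opposite signs was not counted. For Rcan2 the IL-18 null differences were small, so their signs carry little weight. The difference between responses was not tested, since each response is 1 array minus another. For Rcan2 the response in IL-18 null minus that in wild type was -1.68 for 1421425_a_at (-0.13 in IL-18 null, 1.54 in wild type) and -2.73 for 1450243_a_at (-0.01 in IL-18 null, 2.72 in wild type). For Ppp3cb 1427468_at it was -2.43, a bound (-0.87 in IL-18 null, 1.56 in wild type), and for Ppp3r1 1433591_at it was -4.81, a bound (-0.58 in IL-18 null, 4.225 in wild type). Wild-type sham was the lowest array for Rcan2 and Ppp3r1 and was below the floor, with IL-18 null banded, for Ppp3cb 1427468_at.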

How the results depend on the processing

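Values of single probe sets were compared with their alternatives in 308 cases: 282 stayed on the same side of 2-fold, 21 moved past it and 5 came back inside it, and 0 of those past 2-fold changed sign. Rcan1 1416600_a_at stayed past 2-fold with banding in both genotypes under every floor and normalization tried. Counts of members past 2-fold that moved by over 1.5 times were as follows. With IL-18 null banding the count was 2 in place of 1 with the floor at log2 5 and with no floor, the added one being Ppp3cb 1427468_at at -1.40. At 1.5-fold the counts were 3 with IL-18 null banding, 7 for genotype in sham, 6 for genotype in banded and 9 for the difference of responses, where 2-fold gave 1, 4, 3 and 4. After cyclic loess they were 5 for genotype in banded and 7 for the difference of responses. Without the probe sets that can match several transcripts (IDs ending in _s_at, _x_at or _a_at), which removed every probe set of Rcan1 and Rcan2, 4 members were measured and the counts were 3 with wild-type banding, 0 with IL-18 null banding, 1 for genotype in sham and 2 for the difference of responses. Over all probe sets, the split with wild-type banding was 1977 higher and 896 lower, against 1584 and 1806 with quantile normalization and 2234 and 588 with cyclic loess. In IL-18 null it was 483 and 307, against 381 and 369 after quantile normalization. The additive fit called 0 members under each alternative, while over all probe sets banding calls numbered 75 after quantile normalization and 253 with no filter, and genotype calls 11 and 85. The adjusted limma p of Rcan1 for banding was 0.15 to 1.0 over these. No paired analysis was possible because each group has 1 array. Leaving out the wild-type sham array leaves no residual degrees of freedom. Signal near the floor limits Nfatc3 and Ppp3cb 1427468_at, and the cause of the differences between settings was not tested.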
